A study of Mus musculus with 48 samples.

Results

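Gdf15 encodes growth differentiation factor 15, a secreted stress cytokine and a divergent member of the TGF-β superfamily. It is described here as 1 row of the 51789 genes in the count table, read in all 48 libraries of a study of mouse macrophages. The gene was chosen by its levels and its log2 responses to AP-3-84 in these libraries, which were already known. Those values are therefore given as a description with no test. The comparison of the 2 peritoneal populations with vehicle was not one that the choice named, and it was tested. Its libraries are also the vehicle arms of 2 responses known at the choice, so its p-value is not independent of the choice.

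GDF15 is made as a precursor, cut by furin-type proteases and released as a dimer. Its receptor GFRAL, which signals with the kinase RET, is known from the hindbrain, where it lowers food intake and causes nausea. The gene is known to be induced by the integrated stress response, in which phosphorylation of eIF2α raises the transcription factors ATF4 and CHOP, and by p53, TFEB and EGR1. In macrophages it is known to be made under inflammatory, metabolic and mitochondrial stress.

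The study asked how AP-3-84, a compound the labels give only by this code name, changes gene expression in macrophages of different origin. Each population received 10 µM of the compound or an equal amount of DMSO, the vehicle, for 4 h, which makes 16 groups of 3 libraries. The ascites population consisted of F4/80+ peritoneal cells, enriched on magnetic beads, of mice that had received ID8 ovarian tumour cells 45 days earlier; the labels give the genotype B6(Cg)-Tyrc-2J/J, a C57BL/6 line that carries a mutant tyrosinase allele. The thio population consisted of F4/80+ cells enriched in the same way from wild-type C57BL/6 mice, collected 4 days after an intraperitoneal dose of 1 ml of 3% thioglycollate, an irritant that recruits macrophages. The remaining 6 populations were macrophages raised from bone marrow over 6 days with 10 ng/mL of the growth factor M-CSF. They came from wild-type (WT) or p53 knockout (KO) C57BL/6 mice. M0 cells had no further treatment, M1 cells had a further 24 h with LPS at 100 ng/mL and IFN-γ at 50 ng/mL, and M2 cells had 24 h with IL-4 and IL-13, each at 10 ng/mL. In the genotype field of the labels all 36 libraries from bone marrow are wild-type, whereas titles, descriptions and the design text separate WT from KO, and these were followed. The labels do not give the ages of the mice, the knockout allele, or whether replicates came from separate animals or cultures, so each p-value measures only the spread between these samples, which may be technical.

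In GENCODE M21 (GRCm38), Gdf15 (ENSMUSG00000038508) lies on chromosome 8 from 70629393 to 70632456 on the minus strand, and 0 annotated genes overlap it. It has 2 protein-coding transcripts with different starts, at 70632456 and at 70632095. The 250 bases before the outer start are shown because the transcription factors named above are known for acting on promoters of stress genes. The sequence is that of chr8:70632457-70632706 of GRCm38 on the minus strand, 5′ to 3′, from the RefSeq promoter table for GRCm38.p6.

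Gdf15 promoter: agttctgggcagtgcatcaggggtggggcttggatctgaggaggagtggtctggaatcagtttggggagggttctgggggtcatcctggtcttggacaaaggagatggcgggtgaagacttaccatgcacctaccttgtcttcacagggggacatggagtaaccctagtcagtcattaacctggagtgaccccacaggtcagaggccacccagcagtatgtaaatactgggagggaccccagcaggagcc

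Its GC content was 56.4%, and 0 of 7 motifs searched on both strands matched it. These were TGATGNAA (the C/EBP-ATF composite element of ATF4 and CHOP, in 3.45% of 32851 such windows), TGACGTCA (the cAMP response element, 1.55%), TGANTCA (AP-1, 6.75%), TGACNNNGC (the antioxidant response element, 10.2%), CACGTG (the E-box core of TFEB, 6.02%), GGGCGG (the GC box, 32.7%) and the p53 half-site (7.13%). The cAMP and antioxidant elements share the letters TGAC, so a match to one can overlap the other. In the 250 bases before the inner start there was 1 match, to CACGTG, at 83 to 78 bases before that start. This match lies inside the first exon, 70632150 to 70632456, of the transcript with the outer start. It is shown with its surroundings, at chr8:70632163-70632188 on the minus strand, with the motif in capitals.

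E-box of the inner start: cagggcagggCACGTGtgagcatcca

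These matches describe letters only. They do not show which factor acted in these cells, and the absence of a match concerns this window alone.

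Total counts per library were 15532373 to 19417581 in the 12 peritoneal libraries and 3081707 to 4645148 in the 36 bone marrow-derived libraries. Levels are given as CPM, counts scaled by TMM to a common library total, and the peritoneal and bone marrow-derived libraries were scaled apart. Gdf15 had 101 to 981 counts per peritoneal library and 26 to 527 per bone marrow-derived library. At the lowest of these, 26 counts in KO_M0 vehicle replicate 3, the level of 7.03 CPM had a 95% exact Poisson interval of 4.59 to 10.3 CPM, which covers counting error only. All 7 markers of a macrophage list had counts in every group, with summed levels from 5894 CPM in a KO_M2 to 48715 CPM in a WT_M1 library. Several libraries stood apart. The summed level of 12 M1 markers was 2733 CPM in WT_M2 vehicle replicate 1 against 1015 and 440 CPM in the other two of its group, and 773 and 478 CPM in KO_M0 AP-3-84 replicates 1 and 2 against 221 CPM in replicate 3. Many results that rest on those 3 libraries are also given without them, but not all. The KO_M0 AP-3-84 group then has 1 library, whose spread is taken from the other groups. Markers of epithelium and ID8 tumour cells, 8 of 8 with counts, summed to 211 to 249 CPM in ascites vehicle and 241 to 272 CPM in ascites AP-3-84 libraries, against 2.81 to 4.98 CPM in thio libraries.

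The targeted gene, Trp53, was at 11.1 ± 2.04 CPM (SD, n = 3) in WT_M0 vehicle and 4.34 ± 1.87 CPM in KO_M0 vehicle libraries. In M1 the levels were 8.09 ± 1.26 and 6.96 ± 2.80 CPM, and in M2 7.15 ± 2.45 and 4.63 ± 2.31 CPM. The M0 difference had an edgeR adjusted p of 0.01, or 0.0536 without KO_M0 vehicle replicate 1, and WT and KO libraries overlapped in M1 and M2. These reads mark the 3′ end of the transcript, and a 3′ tag outside the deleted part checks nothing; the deleted part is not given in the sources used here. Cdkn1a, the p53-induced inhibitor of cyclin-dependent kinases, was lower in KO than in WT vehicle libraries in each state, with log2 fold changes of -4.58 (SE 0.318) in M0, -1.54 (SE 0.277) in M1 and -3.21 (SE 0.296) in M2 (edgeR adjusted p 1.1e-10, 0.00065 and 5.7e-08).

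In vehicle-treated wild-type bone marrow-derived macrophages, Gdf15 was highest without polarization or after IL-4 and IL-13, and lowest after LPS and IFN-γ. WT_M0 vehicle libraries had 74.0, 42.3 and 39.4 CPM, a mean of 51.9 ± 19.2 CPM (SD, n = 3). WT_M2 vehicle libraries had 62.1, 34.1 and 46.5 CPM, a mean of 47.6 ± 14.0 CPM. WT_M1 vehicle libraries had 14.6, 11.1 and 13.3 CPM, a mean of 13.0 ± 1.76 CPM. All 3 WT_M1 libraries lay below all 3 WT_M0 libraries, while WT_M0 and WT_M2 overlapped. The log2 difference of M1 from M0 in WT was -2.00 (SE 0.316), 306th from the lowest of 11779 tested genes. Against it, 18.6% of tested genes lay lower in all 3 WT_M1 than in all 3 WT_M0 libraries. The log2 difference of M2 from M0 in WT was -0.13 (SE 0.290), and it was -0.36 without the libraries that stood apart.

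In p53 knockout macrophages the order was different. KO_M0 vehicle libraries had 7.60, 12.0 and 7.03 CPM, a mean of 8.88 ± 2.72 CPM, the lowest of the 12 bone marrow-derived groups. KO_M1 vehicle libraries had 120.9, 77.2 and 111.6 CPM, a mean of 103.2 ± 23.0 CPM. KO_M2 vehicle libraries lay between, with 20.2, 27.5 and 37.5 CPM and a mean of 28.4 ± 8.68 CPM. The 3 KO states did not overlap with each other. The log2 difference from KO_M0 was 3.55 (SE 0.334), or 11.7-fold, for KO_M1, and 1.68 (SE 0.335), or 3.21-fold, for KO_M2. Of all tested genes, 25.1% lay higher in all 3 KO_M1 and 23.7% higher in all 3 KO_M2 than in all 3 KO_M0 libraries.

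**Figure D1:**
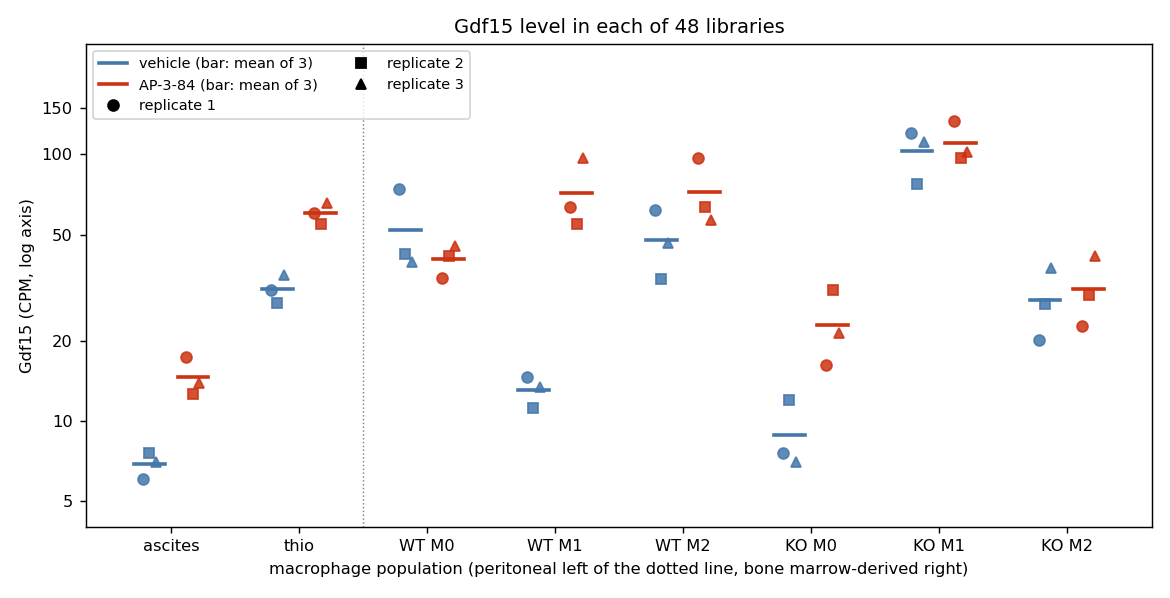
Gdf15 level in each of the 48 libraries, as CPM on a log axis, for vehicle and AP-3-84 libraries of the 8 populations, with the mean of each group of 3. KO_M1 libraries of both treatments and WT_M1 and WT_M2 libraries with AP-3-84 sit high, while KO_M0, WT_M1 and ascites vehicle libraries sit low.

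Set against WT in the same state, Gdf15 in KO vehicle libraries was lower in M0 and higher in M1. The log2 difference of KO from WT was -2.56 (SE 0.331) in M0, with no overlap, 384th from the lowest of the tested genes. In M1 it was 2.99 (SE 0.320), or 7.92-fold higher in KO, with no overlap, 203rd from the highest. In M2 it was -0.75 (SE 0.298), the groups overlapped, and without the libraries that stood apart it was -0.52. The share of tested genes with no overlap in the same direction was 22.9% for M0 and 17.3% for M1. The difference between the M1 and the M0 value was 5.54 (SE 0.460) on the log2 scale, 86th from the highest of 11779 genes. The 2 vehicle comparisons of KO with WT thus have opposite signs for this gene. A list of 7 neutrophil markers summed to 977 to 2359 CPM in KO_M1 vehicle and 436 to 566 CPM in WT_M1 vehicle libraries. The macrophage list summed to 16073 to 25150 CPM in KO_M1 vehicle and 43565 to 46541 CPM in WT_M1 vehicle libraries, and to 5894 to 18413 and 24908 to 30922 CPM in KO_M2 and WT_M2 vehicle libraries. In M0 it was 32252 to 38950 CPM in KO and 30189 to 38378 CPM in WT. The part of either list in the Gdf15 differences was not tested.

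The polarization labels were checked with known markers. Il1b, an inflammatory cytokine, rose from M0 to M1 by 2.89 (SE 0.686) on the log2 scale in WT and 5.44 (SE 0.782) in KO vehicle libraries (edgeR adjusted p 0.0052 and 5.7e-06). Arg1, an arginase and a marker of M2 macrophages, rose from M0 to M2 by 8.52 (SE 0.685) in WT and 10.43 (SE 0.771) in KO (edgeR adjusted p 1.7e-09 and 3.2e-10). Arg1 also rose from M0 to M1, by 3.57 (SE 0.618) in WT and 5.90 (SE 0.724) in KO (edgeR adjusted p 0.0003 and 6.5e-07). Of the other M1 markers, Cxcl10, an interferon-induced chemokine, stood at -0.11 in WT_M1 (edgeR adjusted p 0.94) and rose by 6.05 in KO_M1. Cd86, a co-stimulatory receptor ligand, stood at -0.44 and -0.18 (edgeR adjusted p 0.54 and 0.74). The labelled M1 state was thus not marked by every list gene. Nor were M1 markers confined to M1. From M0 to M2 in WT vehicle libraries, Nos2 rose by 3.10 and Cd40 by 2.45 (edgeR adjusted p 0.0186 and 9.1e-09). Ccl5 rose by 4.40, Il12b by 2.40 and Ptgs2 by 2.62 (edgeR adjusted p 0.00013, 0.0062 and 0.006). Acod1, Il1b, Il6, Tnf, Cxcl9, Cxcl10 and Cd86 were not called there. The share of all tested genes called is not given. The group includes WT_M2 vehicle replicate 1, which stood apart.

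With AP-3-84, Gdf15 was higher than with vehicle, with no overlap between the groups, in 4 of the 8 populations: WT_M1, KO_M0, ascites and thio. In the other 4 (WT_M0, WT_M2, KO_M1 and KO_M2) the groups overlapped. Since these are bulk RNA samples, fewer cells of a type that makes Gdf15 and less Gdf15 RNA per cell cannot be told apart here or in any value above.

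WT_M1 libraries with AP-3-84 had 63.4, 54.7 and 96.9 CPM, a mean of 71.7 ± 22.3 CPM, against 13.0 CPM with vehicle. The log2 fold change was 2.46 (SE 0.318), or 5.49-fold, the 82nd highest of 11779 tested genes. It stayed between 2.17 and 2.60 as each library was left out in turn. Of all tested genes, 9.6% lay higher in all 3 treated than in all 3 vehicle WT_M1 libraries. Neutrophil markers summed to 662 to 1316 CPM in treated and 436 to 566 CPM in vehicle WT_M1 libraries, with Ly6g at 0 in the treated group, and M1 markers to 3675 to 5376 and 5518 to 6321 CPM. The part of these lists in the Gdf15 response was not tested.

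KO_M0 libraries with AP-3-84 had 16.2, 31.1 and 21.4 CPM, a mean of 22.9 ± 7.56 CPM, against 8.88 CPM with vehicle. The log2 fold change was 1.38 (SE 0.338), or 2.59-fold, the 688th highest. Without the 3 libraries that stood apart in their M1 markers, 2 of them in this treated group, it was 1.30. That value rests on 1 treated library. In KO_M0, 15.4% of tested genes lay higher in all treated libraries. M2 markers summed to 221 to 584 CPM in treated and 731 to 775 CPM in vehicle KO_M0 libraries. The macrophage list summed to 17926 to 38791 and 32252 to 38950 CPM, and neutrophil markers to 275 to 428 and 524 to 650 CPM. The part of these lists in the KO_M0 response was not tested. The Gdf15 level reached with AP-3-84 was still below every library of WT_M0 with either treatment.

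In the peritoneal populations the responses were smaller in size and tighter. Ascites libraries had 6.05, 7.54 and 7.00 CPM with vehicle (6.86 ± 0.753 CPM) and 17.3, 12.6 and 13.8 CPM with AP-3-84 (14.6 ± 2.45 CPM). Thio libraries had 30.9, 27.7 and 35.3 CPM with vehicle (31.3 ± 3.83 CPM) and 60.2, 54.7 and 65.7 CPM with AP-3-84 (60.2 ± 5.48 CPM). The treated means were 2.12-fold and 1.92-fold the vehicle means on the fitted scale, with log2 fold changes of 1.08 (SE 0.141) in ascites, the 370th highest of 16955 tested genes, and 0.94 (SE 0.126) in thio, the 832nd highest. The share of tested genes with no overlap in this direction was 9.86% in ascites and 12.7% in thio. The macrophage list was lower with AP-3-84 in both, at 23747 to 28429 against 28655 to 30487 CPM in ascites and 27578 to 32739 against 34284 to 34749 CPM in thio libraries, and its part was not tested. The response in ascites exceeded that in thio by 0.14 (SE 0.188), which is smaller than its error.

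In the remaining 4 populations treated and vehicle libraries overlapped. In WT_M0, treated libraries had 34.3, 41.7 and 45.2 CPM, and the log2 fold change was -0.36 (SE 0.290). In WT_M2, treated libraries had 96.6, 63.3 and 56.7 CPM, and it was 0.60 (SE 0.290), or 0.81 without the libraries that stood apart. In KO_M1, treated libraries had 133.0, 97.2 and 101.8 CPM, and it was 0.10 (SE 0.280). KO_M2 treated libraries had 22.6, 29.6 and 41.7 CPM, and the log2 fold change was 0.15 (SE 0.301). KO_M1 thus held the highest levels of the 12 bone marrow-derived groups with either treatment, and KO_M2 stayed at an intermediate level.

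**Figure D2:**
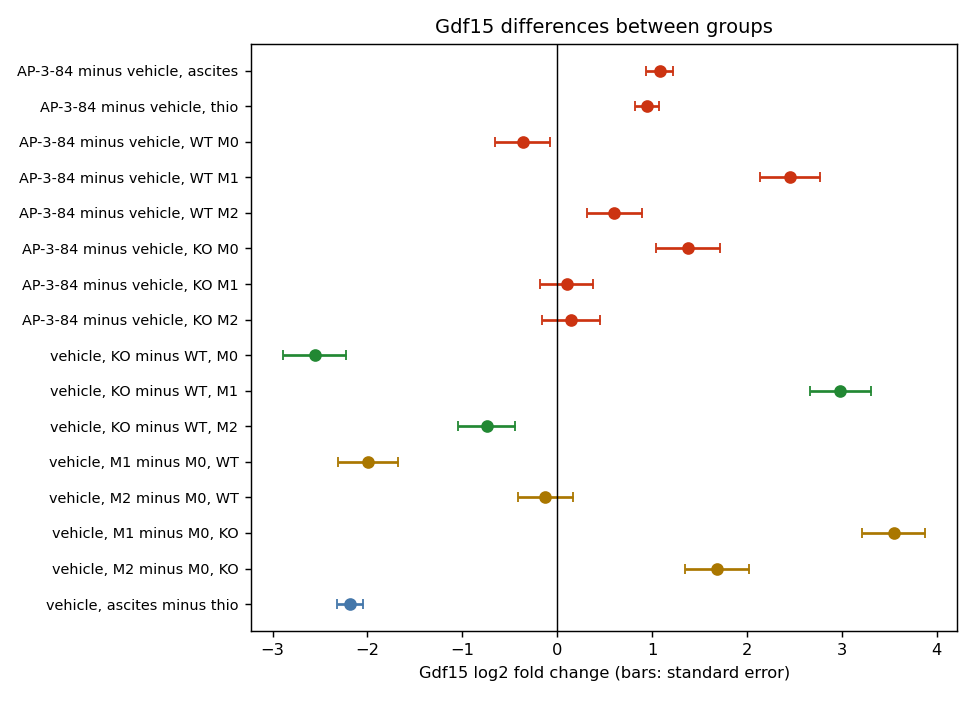
Gdf15 log2 fold change in each comparison (horizontal axis), as a point with a bar of 1 standard error to each side. The response to AP-3-84 is largest in WT_M1 at 2.46, and the vehicle difference of KO from WT is -2.56 in M0 and 2.99 in M1.

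Set between genotypes, the Gdf15 response to AP-3-84 was larger in KO in M0 and larger in WT in M1. Subtracting the WT response from the KO response gave 1.74 (SE 0.446) in M0, -2.36 (SE 0.422) in M1 and -0.45 (SE 0.418) in M2. The M1 value was the 155th lowest of 11779 genes and the M0 value the 733rd highest. In both states the genotype with the lower vehicle level (KO in M0, WT in M1) had the larger response. The vehicle libraries enter both the baseline and the response, so the 2 values share them.

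Ordered by mean, the 12 bone marrow-derived groups ran from KO_M0 vehicle, WT_M1 vehicle, KO_M0 AP-3-84, KO_M2 vehicle, KO_M2 AP-3-84, WT_M0 AP-3-84, WT_M2 vehicle, WT_M0 vehicle, WT_M1 AP-3-84 and WT_M2 AP-3-84 to KO_M1 vehicle and KO_M1 AP-3-84. Their means ran from 8.88 to 110.7 CPM. Each pair of neighbours in this order overlapped in range, except WT_M1 vehicle and KO_M0 AP-3-84. The peritoneal order was ascites vehicle, ascites AP-3-84, thio vehicle and thio AP-3-84, and no neighbours there overlapped.

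With vehicle, Gdf15 was lower in ascites than in thio macrophages, at -2.19 on the log2 scale (SE 0.139), 196th from the lowest of 16955 genes (edgeR adjusted p 1.03e-09). The adjusted p ranged from 6.62e-65 to 2.7e-08 over the alternatives run. The libraries compared are also the vehicle arms of the 2 peritoneal responses known at the choice of the gene. The p-value is therefore not independent of that choice. All 3 ascites libraries lay below all 3 thio libraries, as did 20.4% of tested genes, and 33.7% of tested genes were called in either direction in this comparison. The 2 populations also differed in the labelled genotype, in the tumour and in epithelial or ID8 marker counts, and these cannot be told apart.

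The integrated stress response genes, the pathway best known for inducing Gdf15, were described from a list of 28 genes, of which 25 were tested in each fit. Gdf15 itself is not in the list. In thio macrophages 14 of 25 rose with AP-3-84 and 0 fell, against 4.32% of all tested genes called in either direction. The median log2 fold change of the list was 0.55, and that of all genes was within 0.05 of 0. Trib3, a pseudokinase induced by ATF4 and CHOP, rose by 2.14 (SE 0.236), and Asns, asparagine synthetase, by 2.72 (SE 0.327) (edgeR adjusted p 3.7e-05 and 8.3e-05). Slc7a11, the cystine transporter, rose by 1.72 and Atf4 by 0.68 (SE 0.085).

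In ascites macrophages 5 of 25 list genes rose and 0 fell, against 1.79% of all tested genes, and the list median was 0.33. They were Atf4, Slc7a11, Ppp1r15a, Trib3 and Atf3, named after their values were seen where the naming rule does not hold them. Atf3, a stress-induced transcription factor, rose by 0.81 (SE 0.072) and Atf4 by 0.44 (SE 0.085) (edgeR adjusted p 4e-06 and 0.0078). The rise of Trib3, 1.09, lost its call without ascites vehicle replicate 1, vehicle replicate 2 or AP-3-84 replicate 1 (edgeR adjusted p 0.0651, 0.0774 and 0.0519). Gdf15 at 1.08 was close to Trib3 in this population.

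In KO_M0 macrophages 13 of 25 list genes rose and 1, Cebpg, fell, against 20.7% of all tested genes called, and the list median was 1.04. Chac1, an enzyme that degrades glutathione, rose by 3.39 (SE 0.690), Trib3 by 3.00 (SE 0.609), Asns by 2.49 (SE 0.365) and Atf4 by 1.04 (SE 0.188) (edgeR adjusted p 0.00073, 0.00094, 1.8e-05 and 0.0002). Without the 3 libraries that stood apart, 4 list genes were called in place of 14. Trib3 was then at 2.35, Chac1 at 2.68 and Atf4 at 0.54 (edgeR adjusted p 0.186, 0.123 and 0.417), while the call of Asns held. For the count without the 3 libraries no share of all genes is given. The summed level of M1 markers was 221 to 773 CPM in treated and 80.3 to 112 CPM in vehicle KO_M0 libraries, and its part in these rises was not tested.

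In WT_M1, where the log2 fold change of Gdf15 was largest, edgeR called 0 of 25 list genes and 0.017% of all tested genes. DESeq2 called 2 list genes, and 6 had an unadjusted p under 0.05 in edgeR. No share of all genes is given for those 2 measures. Of the 25 genes, 22 had positive log2 fold changes, with a median of 0.33, where the median of all tested genes was 0.013. Trib3 went from 3.18 ± 0.798 to 16.9 ± 3.61 CPM, which is 2.39 on the log2 scale (SE 0.601, edgeR adjusted p 0.21). Ddit3, which encodes CHOP, went from 39.9 ± 8.10 to 97.1 ± 16.6 CPM, which is 1.28 on the log2 scale (SE 0.352, edgeR adjusted p 0.3). Atf4 stood at 0.22. These genes did not pass the test, and their ranges in treated and vehicle libraries did not overlap for Trib3 and Ddit3.

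The populations in which Gdf15 overlapped between treatments had 0 list genes called by edgeR. Of all tested genes, edgeR called 0.144% in WT_M0, 1.21% in WT_M2, 0% in KO_M1 and 0.0509% in KO_M2. In WT_M0 4 of 25 list genes had an unadjusted p under 0.05 and DESeq2 called 1. In WT_M2 these counts were 3 and 0, in KO_M1 0 and 0, and in KO_M2 10 and 0. No share of all genes is given for the unadjusted p or for DESeq2. In KO_M2 9 of 25 were positive, with a median of -0.27. Leaving out KO_M2 vehicle replicate 1 gave 8 calls there, with no share of all genes given for that fit. Trib3 stood at -0.11 in KO_M1 and at -1.52 in KO_M2.

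**Figure D3:**
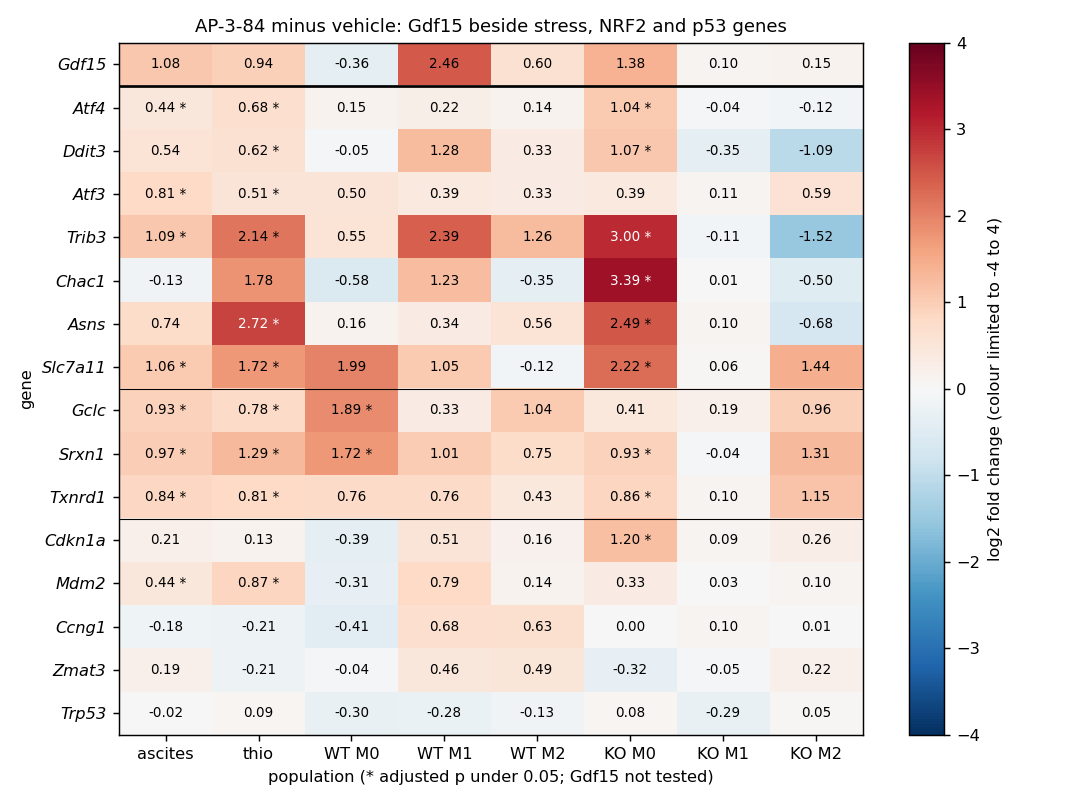
Log2 fold change with AP-3-84 against vehicle for Gdf15 and stress, p53 and NRF2 genes (rows) in the 8 populations (columns), with a star where the edgeR adjusted p is under 0.05; Gdf15 was not tested. Most stars fall in the ascites, thio and KO_M0 columns, and the WT_M1 column shows Gdf15 at 2.46 beside Trib3 at 2.39 without a star.

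At baseline, the integrated stress response list differed between genotypes in M1 in one direction. In KO_M1 against WT_M1 vehicle libraries 15 of 25 genes were higher and 0 lower, against 11.6% of all tested genes called, and the list median was 1.02. Trib3 was higher by 4.16 (SE 0.580), Ddit3 by 2.99 (SE 0.364) and Chac1 by 2.68 (SE 0.615) (edgeR adjusted p 5.4e-05, 8.1e-06 and 0.0048). Asns was higher by 1.92 (SE 0.353), Atf4 by 1.69 (SE 0.191) and Atf3 by 1.51 (SE 0.203) (edgeR adjusted p 0.0008, 7.6e-07 and 1.5e-05). Gdf15 was 2.99 higher in the same comparison. Trib3 was at 56.9 ± 17.1 CPM in KO_M1 vehicle and 52.6 ± 5.95 CPM in KO_M1 AP-3-84 libraries, so it too was high with either treatment.

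In M0 the list was mixed. Of 25 genes 4 were higher in KO (Cebpg, Ddit3, Atf5 and Atf3) and 10 lower, against 33.2% of all tested genes called. Slc7a11 was lower, at -2.92 on the log2 scale (SE 0.544), and Atf3 higher by 0.76 (SE 0.202) (edgeR adjusted p 0.00024 and 0.0042). Atf4 was at -0.23 and Trib3 at -1.11 (edgeR adjusted p 0.37 and 0.21). Without KO_M0 vehicle replicate 1, 9 list genes were called in place of 14, with no share of all genes given for that fit. In M2, 1 was higher and 3 lower, against 3.56% of all tested genes. There 0 list genes were called without WT_M2 vehicle replicate 1 and 7 without KO_M2 vehicle replicate 1. The share of all genes called in those fits is not given.

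The change of the genotype difference from M0 to M1 was tested for each of these genes with an interaction term. It was positive and called for 14 of 25 list genes, with 0 negative, against 20.7% of all tested genes. Trib3 had 5.26, Chac1 4.63, Slc7a11 3.18, Asns 3.16, Ddit3 1.96 and Atf4 1.92 on the log2 scale, beside 5.54 for Gdf15. Each of these 6 calls held when any 1 library was left out.

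In the tumour-bearing ascites population at baseline, Gdf15 and most of this list differed from thio in opposite directions. With vehicle, 16 of 25 list genes were higher in ascites and 3, Cebpg, Ppp1r15a and Atf3, were lower, where 33.7% of all tested genes were called, and the list median was 1.21. Asns was higher by 3.08 (SE 0.322, edgeR adjusted p 6e-07), at 7.15 ± 1.37 CPM in ascites and 0.824 ± 0.492 CPM in thio libraries. Atf3 was lower, at -1.39 on the log2 scale (SE 0.073, edgeR adjusted p 7.5e-11), the direction of Gdf15 at -2.19. Atf4 was at 0.22 (edgeR adjusted p 0.058).

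Targets of p53 were described from a list of 26 genes, with 26 tested in peritoneal and 24 in bone marrow-derived libraries. In KO against WT vehicle libraries 14 of 24 were lower and 0 higher in M0, with a median of -1.11, where 33.2% of all tested genes were called. In M1, 6 were lower and 2, Plk2 and Pmaip1, higher, with a median of -0.50, and in M2 10 were lower and 0 higher, with a median of -0.75. The shares of all tested genes called were 11.6% in M1 and 3.56% in M2. Gdf15, itself a known p53 target, was lower in KO in M0 and higher in M1. Mdm2, the p53-induced ubiquitin ligase for p53, was lower in M0, at -1.89 on the log2 scale, and in M2, at -2.01, both called, and stood at 0.14 in M1. Ccng1, cyclin G1, was lower in all 3 states, at -2.22, -1.67 and -1.75, as was Zmat3, an RNA-binding p53 target, at -1.58, -1.22 and -2.43. Phlda3, an inhibitor of AKT, had 0 counts in all 3 KO_M1 vehicle libraries against 10.3 ± 1.36 CPM in WT_M1.

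With AP-3-84, at most 5 p53 targets were called in any population. In thio 3 rose (Plk2, Sesn2 and Mdm2) and 1 fell (Sesn1), and in ascites 2 rose (Plk2 and Mdm2), out of 26 each, where 4.32% and 1.79% of all tested genes were called. The 4 calls in thio became 2 without any 1 of 5 libraries (vehicle replicates 1, 2 and 3 and AP-3-84 replicates 2 and 3). Mdm2 rose by 0.87 in thio and 0.44 in ascites, while Cdkn1a stood at 0.13 and 0.21 there. In KO_M0, cells labelled as lacking p53, 4 rose (Tigar, Aen, Cdkn1a and Sesn2) and 1 fell (Sesn1), which is 5 of 24 where 20.7% of all tested genes were called, so the share is that of all genes; the 5 became 3 without AP-3-84 replicate 1 and 0 without the 3 libraries that stood apart. Cdkn1a rose there by 1.20 (SE 0.289, edgeR adjusted p 0.0037), from 38.8 ± 6.12 to 89.3 ± 20.3 CPM, and was at 1.41 (edgeR adjusted p 0.0878) without those libraries. In WT_M1, edgeR called 0 of 24 and 0.017% of all tested genes. DESeq2 called 2 of the 24, and 8 had an unadjusted p under 0.05 in edgeR. No share of all genes is given for those 2 measures. Of these 24 genes 20 were positive, with a median of 0.47; Mdm2 was at 0.79 (edgeR adjusted p 0.46) and Cdkn1a at 0.51 (edgeR adjusted p 0.7). Leaving out WT_M1 vehicle replicate 3 gave 1 call. The counts with libraries left out have no share of all genes beside them. In WT_M0, WT_M2, KO_M1 and KO_M2 edgeR and DESeq2 each called 0. There 2, 5, 0 and 0 genes had an unadjusted p under 0.05 in edgeR, again with no share of all genes given.

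**Figure D4:**
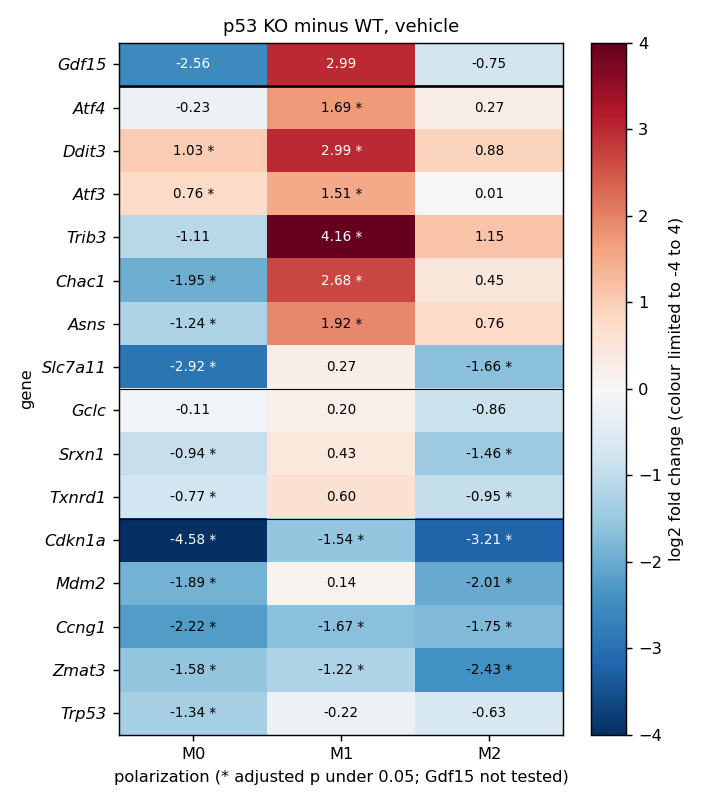
Log2 difference of KO from WT vehicle libraries for Gdf15 and stress and p53 genes (rows) in M0, M1 and M2 (columns), with a star where the edgeR adjusted p is under 0.05; Gdf15 was not tested. Gdf15 is negative in M0 and positive in M1, Trib3 and Ddit3 are highest in M1, and Cdkn1a and Ccng1 are negative in all 3 states.

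Targets of NRF2, the factor of the oxidative stress response, were called with AP-3-84 in both peritoneal populations. Of 20 genes 14 rose in thio and 12 in ascites, and 0 fell in either, with medians of 0.74 and 0.43, where 4.32% and 1.79% of all tested genes were called. Srxn1, sulfiredoxin, rose by 1.29 in thio and 0.97 in ascites, and Txnrd1, thioredoxin reductase, by 0.81 and 0.84. Gclc, the catalytic subunit of glutamate-cysteine ligase, rose by 0.78 and 0.93. In KO_M0 4 of 19 rose (Txnrd1, Slc7a11, Me1 and Srxn1), a share close to the 20.7% of all tested genes called there. In WT_M0, where Gdf15 was at -0.36 and 0.144% of all genes were called, Srxn1 rose by 1.72 and Gclc by 1.89, the only called members of 19. The call of Srxn1 was lost on leaving out any of 5 libraries (WT_M0 vehicle replicates 1, 2 and 3 and AP-3-84 replicates 1 and 2) and that of Gclc on leaving out any of 3 (vehicle replicates 1 and 3 and AP-3-84 replicate 1), with edgeR adjusted p of 0.0564 to 0.0826 over both genes. Gclc went from 38.5 ± 8.96 to 143.0 ± 20.9 CPM, with no overlap. The Gdf15 value there had the opposite sign. In KO against WT vehicle libraries 11 of 19 NRF2 targets were lower and 1 higher in M0, 2 were lower and 0 higher in M1, and 12 were lower and 0 higher in M2. The shares of all tested genes called were 33.2%, 11.6% and 3.56%, so the M1 count is near that of all genes. The M2 count includes WT_M2 vehicle replicate 1, which stood apart in its M1 markers, and was not recounted without it. Levels in that group were spread, with Prdx1 at 7122 ± 4875 CPM and Hmox1 at 188 ± 111 CPM.

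A list of 20 transcription factors described for the Gdf15 gene was read next, with 20 tested in peritoneal and 19 in bone marrow-derived libraries. In KO_M1 against WT_M1 vehicle libraries 9 were higher and 0 lower: Egr1, Atf4, Klf4, Jun, Ddit3, Nupr1, Nr4a1, Nfe2l2 and Atf3, where 11.6% of all tested genes were called. Egr1, Ddit3, Nr4a1 and Atf3 were also called higher in KO in M0, where Gdf15 was lower and 33.2% of all tested genes were called. Atf4, Klf4, Jun, Nupr1 and Nfe2l2 were not called in M0, and none of the factors named was called in M2. The genotype count over the whole list is given for M1 only. With AP-3-84, 5 rose in ascites (Egr1, Atf4, Klf4, Jun and Atf3), 8 in thio and 3 in KO_M0, and 0 fell in these 3 populations. The shares of all tested genes called were 1.79%, 4.32% and 20.7%, so the KO_M0 count is not above that of all genes. Their part in the Gdf15 values was not tested.

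Of the genes for its receptor and processing, Furin, the protease that cuts the precursor, was expressed in every group. It fell in KO_M0 with AP-3-84 by 1.17 on the log2 scale (SE 0.202, edgeR adjusted p 0.00012), from 159.5 ± 25.7 to 70.9 ± 19.0 CPM, and stood at -0.79 (edgeR adjusted p 0.265) without the libraries that stood apart. In KO_M0 vehicle it was higher than in WT_M0 vehicle by 0.85 (SE 0.200). In M2 it was lower in KO, at -0.70 (SE 0.199, edgeR adjusted p 0.043), and this call was lost without any library but KO_M2 vehicle replicate 1 (edgeR adjusted p 0.0565 to 0.224). Gfral, the receptor, had 0 counts in the 36 bone marrow-derived libraries together, which allows up to 0.022 CPM, and 10 counts in 3 of the 12 peritoneal libraries. Ret, its co-receptor, had 29 counts in 7 of 36 and 4 counts in 2 of 12 libraries.

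Other ligands of the TGF-β family, to which GDF15 belongs, were described from a list of 33. Beside Gdf15, 12 of them passed the filter on low counts in peritoneal and 6 in bone marrow-derived libraries. With AP-3-84, 1 rose in ascites (Tgfb1), 1 fell in WT_M2 (Inhba) and 1 fell in KO_M0 (Gdf3). The shares of all tested genes called were 1.79%, 1.21% and 20.7%. Inhba was at 63.7 ± 82.6 CPM in the WT_M2 vehicle group, which holds the replicate 1 that stood apart in its M1 markers. In KO against WT vehicle libraries, where Gdf15 was lower in M0, 5 of the 6 were higher in M0: Tgfb1, Tgfb2, Tgfb3, Bmp2 and Inhba, where 33.2% of all tested genes were called. Tgfb1 was higher there by 1.00 (SE 0.186), at 56.2 ± 5.87 against 28.2 ± 2.86 CPM. In WT_M0 vehicle libraries Tgfb3 was at 0.080 ± 0.138, Tgfb2 at 0.458 ± 0.449 and Bmp2 at 0.618 ± 0.536 CPM. These levels are near the floor of counts, which leaves the sizes of those rises uncertain. In M1 Inhba was higher in KO, where 11.6% of all tested genes were called.

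The genes whose levels ran most like Gdf15 over the 36 bone marrow-derived libraries were ranked by Pearson's r of log2 CPM among 8430 genes. The 10 highest were Osgin2 (0.832), Chchd6 (0.770), Ezr (0.768), Odc1 (0.767), Trib3 (0.750), Spc25 (0.748), Il1f9 (0.748), Ccne2 (0.744), Tubg1 (0.743) and Tmem199 (0.737). The points share group means and 3 libraries per group, and the 90th percentile of r over all ranked genes was 0.449. After group means were subtracted, r was lower for each of the 10, from 0.296 for Tubg1 to 0.633 for Il1f9, and none of the 10 was among the 10 highest by that measure. Over the 12 peritoneal libraries only Osgin2 (0.701), Chchd6 (0.803) and Tmem199 (0.622) of the 10 had a positive r, while Ccne2 was at -0.889 and Trib3 at -0.034. Without the limit on level, the ranking held 11778 genes. There Trib3, an integrated stress response gene, ranked 5th, and Mdm2, a p53 target with r of 0.680, ranked 79th.

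**Figure D5:**
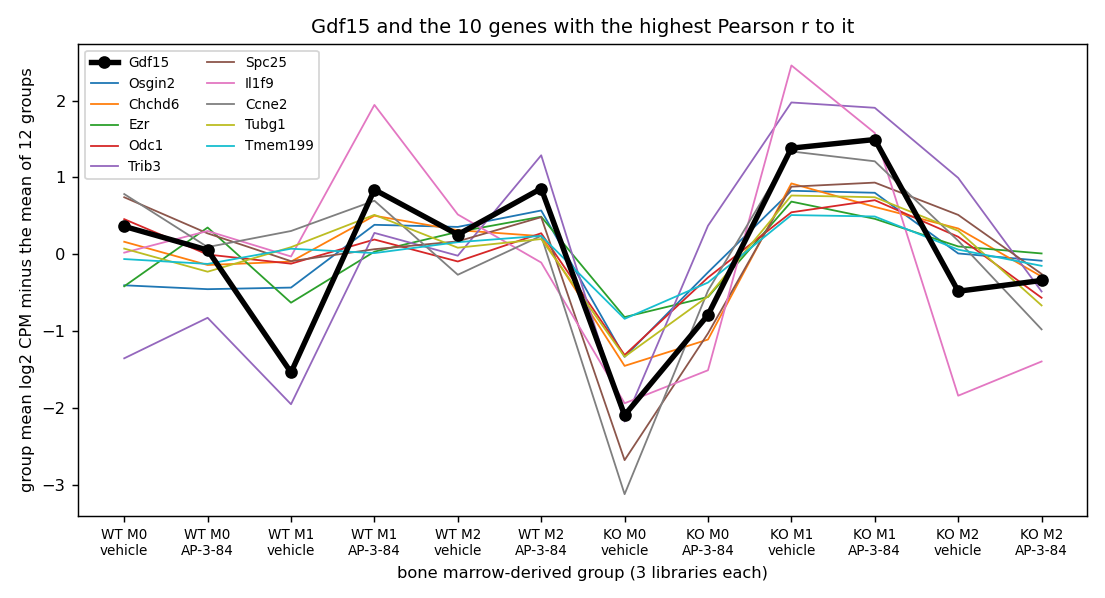
Group means of log2 CPM, each minus the gene's mean over the 12 bone marrow-derived groups (vertical axis), for Gdf15 and the 10 genes with the highest Pearson's r to it. Gdf15 and the 10 genes all have their lowest point at KO_M0 vehicle and their highest in a KO_M1 group. Of the 10 genes, Trib3 lies at least as far below its own mean at WT_M1 vehicle as Gdf15. From WT_M0 to WT_M1 vehicle it fell less, from 2.47 to 1.87 in mean log2 CPM, against 5.65 to 3.75 for Gdf15.

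The genes next to Gdf15 on chromosome 8 were read as a description of the locus. The 3 nearest tested genes on each side were Isyna1, Ssbp4 and Lrrc25 toward lower and Pgpep1, Lsm4 and Jund toward higher coordinates, from 7910 to 66493 bases away. In WT_M1, where Gdf15 was at 2.46, the log2 fold changes of the 6 with AP-3-84 ran from -0.29 for Ssbp4 to 0.47 for Pgpep1 (edgeR adjusted p 0.468 to 0.973). In ascites and thio they ran from -0.34 to 0.33 (edgeR adjusted p 0.310 to 0.995). In KO_M0, 4 of the 6 rose with AP-3-84, where 20.7% of all tested genes were called. They were Lrrc25, a transmembrane protein of leukocytes, by 1.16, Isyna1, inositol-3-phosphate synthase, by 1.04, Ssbp4 by 0.71 and Lsm4 by 0.50. Without the libraries that stood apart these were at 0.51, 0.49, -0.12 and 0.15 (edgeR adjusted p 0.609, 0.508, 0.932 and 0.914). The call of Ssbp4 was also lost without KO_M0 vehicle replicate 1 or AP-3-84 replicate 1 or 2, and that of Lsm4 without vehicle replicate 2 or 3 or AP-3-84 replicate 1 or 2 (edgeR adjusted p 0.0798 to 0.212).

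In KO against WT vehicle M0 libraries, where Gdf15 was at -2.56, Lsm4, a component of U6 small nuclear ribonucleoprotein, was lower, at -0.78, Lrrc25 at -0.75 and Isyna1 at -0.56 (edgeR adjusted p 0.0013, 0.017 and 0.018). These are 3 of 6, where 33.2% of all tested genes were called. Lrrc25 was no longer called when KO_M0 vehicle replicate 2 was left out (edgeR adjusted p 0.0695), nor Isyna1 without WT_M0 vehicle replicate 1 or KO_M0 vehicle replicate 3 (edgeR adjusted p 0.0565 to 0.161). In M1, where Gdf15 was at 2.99, Jund, an AP-1 factor, was higher by 0.79 and Ssbp4 lower, at -0.62 (edgeR adjusted p 0.025 and 0.044), against 11.6% of all tested genes called. The call of Jund was lost without WT_M1 vehicle replicate 1 or 2 or KO_M1 vehicle replicate 1 (edgeR adjusted p 0.0582 to 0.376). That of Ssbp4 was lost without any library but WT_M1 vehicle replicate 2 (edgeR adjusted p 0.0512 to 0.317).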

How the data were processed

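The labels put 48 QuantSeq FWD 3′ libraries, made from 100 ng of DNase-treated RNA and read as single reads of 75 bases, into 16 groups of 3. The authors deposited a table of raw counts per gene ID and library. Per the submitters' processing notes, RSEM, Bowtie2 and DESeq2 were used; the sources used here do not state their roles, the genome build, the annotation or whether the whole counts are rounded estimates. Of 51789 gene IDs, 51596 matched GENCODE M21.

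Counts were tested with edgeR 4.0.16 in R 4.3.3 (filterByExpr by group, TMM scaling, robust quasi-likelihood fit, 1 mean per group, no block), apart for the 12 peritoneal (16955 genes tested) and the 36 bone marrow-derived libraries (11779 genes). Genes were called at a two-sided Benjamini-Hochberg adjusted p under 0.05 over all tested genes. The steps were tested on simulated data. CPM used TMM scaling, and log2 CPM in correlations a prior count of 2. Gdf15 and the gene lists were chosen with earlier results of these data known, and the lists share members such as Sesn2, Atf4 and Ddit3. Named besides Gdf15 were stress, p53 and receptor genes fixed by name, list members called alike in at least 3 AP-3-84 comparisons or in all 3 genotype comparisons, the 10 genes most like Gdf15 (average log2 CPM at least 3), and 3 neighbours a side. Genes given as examples of a count were named after their values were seen.

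Replicate numbers come from the titles. Same-numbered libraries deviated together in every pair (correlation over 0.1) in 1 comparison, WT_M2 against WT_M0 vehicle, where they ranged from 0.191 to 0.303. Alternatives were other size factors, total-count scaling, no filter, DESeq2 1.42.0, other sets of libraries in the fit, the replicate block and leaving out each library.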

Additional observations from a re-analysis of the deposited data

Results flagged for a closer look

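These values are differences of a contrast between groups. That of Gdf15 was not tested, since the gene was chosen for its values, while the others passed the edgeR interaction test. The vehicle difference of KO from WT was higher in M1 than in M0 by 5.54 on the log2 scale for Gdf15, where every KO library lay below every WT library in M0 and above every WT library in M1.

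The same interaction was 1.92 for Atf4, 1.96 for Ddit3, 5.26 for Trib3, 4.63 for Chac1, 3.16 for Asns, 3.18 for Slc7a11, 3.04 for Cdkn1a, 2.04 for Mdm2, 1.37 for Txnrd1 and 1.37 for Srxn1, and it was -1.27 for Furin. For Srxn1 the call was lost without WT_M0 vehicle replicate 1, KO_M0 vehicle replicate 1 or KO_M1 vehicle replicate 1 (edgeR adjusted p 0.0531 to 0.0659). The fitted value for Phlda3, -4.11, depends on the prior count, since the gene had 0 counts in the KO_M1 vehicle libraries, and is no estimate of size.

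The response to AP-3-84 differed between KO and WT in M0 by 0.89 for Atf4, 2.45 for Trib3, 3.97 for Chac1, 2.34 for Asns and 1.60 for Cdkn1a, and by -1.57 for Furin and -1.48 for Gclc. The calls of Atf4, Trib3 and Gclc were each lost when any of 2, 8 and 4 of the 12 libraries was left out (edgeR adjusted p 0.0557 to 0.12 for Atf4, 0.0551 to 0.212 for Trib3 and 0.0568 to 0.0833 for Gclc). In M2 the response of Trib3 differed by -2.78, and that call was lost when any of 8 libraries was left out (edgeR adjusted p 0.0818 to 0.16). The KO_M0 AP-3-84 group holds the 2 libraries whose M1 markers stood apart. Without the 3 such libraries each of these 7 M0 differences lost its call, at 0.38 for Atf4, 1.80 for Trib3, 3.27 for Chac1, 1.61 for Asns, 1.80 for Cdkn1a, -1.19 for Furin and -0.71 for Gclc (edgeR adjusted p 0.0596 to 0.602). The treated arm then has 1 library.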

How the results depend on the processing

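Gdf15 had 329 alternative values over 22 comparisons, of which 322 kept their direction and 7 changed sign. Where Gdf15 was not tested, the 322 shifted by less than the SD within groups. In ascites against thio with vehicle, the only comparison with a call of Gdf15, the call was kept. The 7 all left out 1 library, and the main values were within their errors of 0. For WT_M2 against WT_M0 vehicle the range on leaving out 1 library was -0.37 to 0.22, with 0.22 without WT_M0 vehicle replicate 1 and 0.072 without WT_M2 vehicle replicate 2. For AP-3-84 in KO_M1 the range was -0.066 to 0.23, with -0.066 when vehicle replicate 2 and -0.055 when AP-3-84 replicate 1 was left out. For AP-3-84 in KO_M2 it was -0.12 to 0.39, with -0.12 when AP-3-84 replicate 3 and -0.047 when vehicle replicate 1 was left out. The difference of the ascites and thio responses was -0.0027 to 0.24, the lowest without ascites AP-3-84 replicate 1. Ssbp4 in KO_M0 reversed to -0.12 without the 3 libraries that stood apart, an alternative chosen after seeing the data.

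Counts of called integrated stress response genes moved as follows: 0 to 1 in WT_M0 and 0 to 2 in WT_M1 with DESeq2, 14 to 4 in KO_M0 without those 3 libraries, 0 to 8 in KO_M2 on leaving out 1 library, 9 to 12 in KO against WT M0 on leaving out 1 library (14 with all), and 0 to 7 in KO against WT M2 on leaving out 1 library (4 with all, 1 without the 3 libraries). Counts of p53 targets moved from 4 to 2 in thio with the replicate block and to 2 to 3 on leaving out 1 library, from 0 to 2 in WT_M1 with DESeq2 and to 0 to 1 on leaving out 1 library, and in KO_M0 from 5 to 3 to 5 on leaving out 1 library and to 0 without the 3 libraries. These alternatives have no share of all genes beside them. A change in the list alone therefore cannot be told from a change over all genes. The cause was not tested.

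With the replicate number as a block, the Gdf15 values in all 22 comparisons kept their direction. They shifted by at most 0.0242, for example to 2.45 for AP-3-84 in WT_M1. In the comparison whose numbers pair, WT_M2 against WT_M0 vehicle, the value went from -0.126 to -0.131. Gdf15 was not tested there, so it had no call to change. Of 253 other named results, 8 lost their call under the block. Over all alternatives, 419 of 3669 values of those results lost their call, 289 of them on leaving out 1 library.

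Depth limits the bone marrow-derived values, where Gdf15 had as few as 26 counts in a library.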
